A study of Mus musculus with 146 samples.

Results

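Imprinted genes are transcribed from only the maternal or only the paternal copy, and 10 of them were followed here across single germ cells of the newborn mouse ovary. The genes were taken by name: H19, Igf2, Igf2r, Peg3, Peg10, Meg3, Snrpn, Mest, Plagl1 and Cdkn1c. All 10 were found among the 52605 gene symbols that each library lists. The libraries were made by Smart-seq2, a method that copies polyadenylated RNA of 1 cell along its length, with ERCC spike-in RNA in the lysate. The series holds 146 cells from ovaries of newborn females (age label D0.5, strain label C57/BL6J), a single untreated group. Per the labels the pups were litter mates and 5 ovaries were taken. Cells were picked by mouth pipette, and per the study's methods libraries in which quantitative PCR found Foxl2, a pregranulosa cell gene, were removed before sequencing. No label ties a cell to an animal, so all cells form 1 sample, and levels, shares and ratios are given without a test. All of the 146 cells but 1 held at least 1 TPM of Ddx4, the germ cell RNA helicase, and are called germ cells below. TPM (transcripts per 1000000) is a level corrected for transcript length. The cell without Ddx4, cell S029, was left out. It had 1408459 reads on genes, listed Ddx4 at 0, and held 44.1 TPM of Snrpn, 0.228 TPM of Peg3, 0.137 TPM of Meg3 and none of the other 7 genes.

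Imprints are DNA methylation marks laid down differently in eggs and sperm. They are erased in the germ cells of the embryo, and in females the new maternal marks are set after birth, while the oocyte grows, so that germ cells of the newborn ovary lie between erasure and renewal. Many imprinted genes act on fetal growth, with growth promoters often read from the paternal copy and growth restrainers from the maternal copy. In somatic tissue of the mouse, H19, Igf2r, Meg3 and Cdkn1c are expressed maternally and Igf2, Peg3, Peg10, Snrpn, Mest and Plagl1 paternally. The strain was a single inbred one and the values are summed over both copies, so the allele of origin was not measured.

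The promoters of 4 members are shown because 2 of them, Peg3 and Plagl1, were higher in the cluster of cells with the most zona pellucida RNA than in the cluster before it, and the other 2, Igf2r and Snrpn, were found in most germ cells. Cdkn1c was also found in most germ cells, but no window was available for it. RefSeq sequence on GRCm38.p6 was available for 16 start sites of 7 members, each window running from 250 bases before to 50 bases after the start, 5′ to 3′ on the gene's strand. Capitals mark TGCCGC or, on the opposite strand, its reverse complement GCGGCA, the unmethylated spelling of the hexamer that ZFP57, a zinc finger protein that guards imprints, binds when methylated. This hexamer was found in 6 of the 16 windows and in 11.6% of 32851 RefSeq promoter windows of the same length. The 6 include overlapping Mest windows (chr6:30737800-30738099 and chr6:30737803-30738102) that hold the same matches. The hexamer contains a CpG, and the matching windows other than that of Snrpn hold 13 to 26 CpG. The background was not matched for CpG, so these shares are not like for like. A match describes the letters and is not evidence of binding. The windows are chr7:6730370-6730669 for Peg3 (minus strand, 13 CpG, no match), chr10:13090582-13090881 for Plagl1 (plus strand, 26 CpG), chr17:12769657-12769956 for Igf2r (minus strand, 34 CpG, no match) and chr7:60005150-60005449 for Snrpn (minus strand, 7 CpG), against a median of 7 CpG over all windows. The other Snrpn windows, chr7:60047929-60048228, chr7:60140176-60140475 and chr7:60450128-60450427, held 4, 3 and 2 CpG and no match.
Peg3: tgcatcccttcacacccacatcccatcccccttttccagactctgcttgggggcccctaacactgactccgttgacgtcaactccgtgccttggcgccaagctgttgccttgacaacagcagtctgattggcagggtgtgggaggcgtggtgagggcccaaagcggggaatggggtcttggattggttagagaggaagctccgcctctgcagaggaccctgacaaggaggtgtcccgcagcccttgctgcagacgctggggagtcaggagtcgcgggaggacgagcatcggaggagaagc
Plagl1: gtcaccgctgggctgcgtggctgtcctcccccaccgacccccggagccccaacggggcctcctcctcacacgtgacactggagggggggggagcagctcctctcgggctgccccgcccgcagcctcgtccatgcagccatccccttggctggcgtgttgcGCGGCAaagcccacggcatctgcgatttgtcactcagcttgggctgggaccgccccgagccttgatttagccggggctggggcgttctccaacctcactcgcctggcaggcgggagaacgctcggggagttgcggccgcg
Igf2r: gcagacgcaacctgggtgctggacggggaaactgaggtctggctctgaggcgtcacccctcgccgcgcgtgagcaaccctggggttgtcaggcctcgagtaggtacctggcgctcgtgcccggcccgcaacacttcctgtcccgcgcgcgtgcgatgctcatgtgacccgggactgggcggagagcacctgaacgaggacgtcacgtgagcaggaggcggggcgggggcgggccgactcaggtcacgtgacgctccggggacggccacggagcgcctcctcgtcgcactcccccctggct
Snrpn: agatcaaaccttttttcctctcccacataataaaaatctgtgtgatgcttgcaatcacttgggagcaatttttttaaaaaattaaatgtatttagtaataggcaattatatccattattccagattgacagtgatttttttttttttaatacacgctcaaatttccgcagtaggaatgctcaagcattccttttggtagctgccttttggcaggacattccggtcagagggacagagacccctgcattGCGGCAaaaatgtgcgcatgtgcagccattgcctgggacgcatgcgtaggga

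The reads assigned to genes numbered 4074810 to 26855273 per germ cell, with a median of 9498860. Cells fell into 3 rebuilt clusters of 19, 93 and 33 cells, which were made from 19 oocyte genes that the study clustered by and Taf4b, which it names elsewhere, none of them imprinted genes studied here. These clusters differ from the study's own in size and in the set of cells, since its quality filter on cells was not applied. They are called by number. Cluster 1 had the highest mean of Sycp2 (495 TPM), a synaptonemal complex gene, cluster 2 that of Figla (1676 TPM), a transcription factor gene of follicle formation, and cluster 3 that of Zp3 (557 TPM), a zona pellucida gene. Median spike-in TPM was 10423, 12182 and 6735 in clusters 1, 2 and 3. The labelled cell type was set beside its markers. Libraries with Foxl2 had been removed before sequencing and cells were kept by Ddx4, so neither gene is an independent check. All 7 germ cell genes listed averaged above 1 TPM and their sum was between 1088 and 12311 TPM in every cell. Of 13 pregranulosa genes, 2 averaged at least 1 TPM (Kitl and Gata4), their sum was 0 to 81.6 TPM with a median of 0.694, and Foxl2 reached 0.1 TPM in 3.45% of germ cells. The 11 stroma genes summed to 0 to 842 TPM (median 12.7), and 7 of them averaged at least 1 TPM, up to 10.7 TPM for Mfap4. The 5 mesothelium genes summed to 0 to 17.8 TPM, and none averaged 1 TPM. Blood and endothelial genes summed to a median of 52.7 TPM but a mean of 4877 TPM, and to 324970 TPM in cell S126. Of these 12 genes, 5 averaged at least 1 TPM. The haemoglobin genes Hba-a2, Hbb-bs and Hba-a1 had means of 2209.5, 1353.5 and 1219.5 TPM, above the Ddx4 mean of 213 TPM. Their medians were 15.4, 8.84 and 14.03 TPM. Of the pregranulosa markers, Foxl2 and Gata4 averaged 0.275 and 1.25 TPM, beside a median of 189 TPM for Ddx4.

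The imprinted genes covered a wide range of levels. By mean TPM over the germ cells the order was Cdkn1c (56.5 ± 83.4, SD across cells), Snrpn (30.98 ± 35.2), Igf2r (11.5 ± 9.30), Peg3 (5.84 ± 12.0), Meg3 (3.76 ± 20.3), Igf2 (3.16 ± 13.7), H19 (2.58 ± 14.9), Plagl1 (1.67 ± 6.75), Mest (1.44 ± 8.25) and Peg10 (0.0156 ± 0.147). Every step between neighbours in this order was smaller than the larger SD of the pair, so no neighbours were apart by more than the spread across cells. Among 22616 genes that reached 0.1 TPM in at least 10 cells, the mean of Cdkn1c lay at percentile 86.8, that of Snrpn at 78.8 and that of Igf2r at 63.6, while Mest, the lowest member to pass that filter, lay at 33.5. Peg10 did not pass the filter. The order by how many cells held the gene was different. Igf2r reached 0.1 TPM in 97.9% of cells (all but 3, exact 95% interval 94.1% to 99.6%), Snrpn in 81.4% (74.1% to 87.4%) and Cdkn1c in 69.7% (61.5% to 77.01%). These 3 were the members found in at least 50% of cells. Peg3 followed with 42.8%, Igf2 with 39.3%, Meg3 with 24.1%, Plagl1 with 16.6%, H19 with 14.5%, Mest with 13.8% and Peg10 with 2.76%. Intervals here and below cover counting error only.

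**Figure D1:**
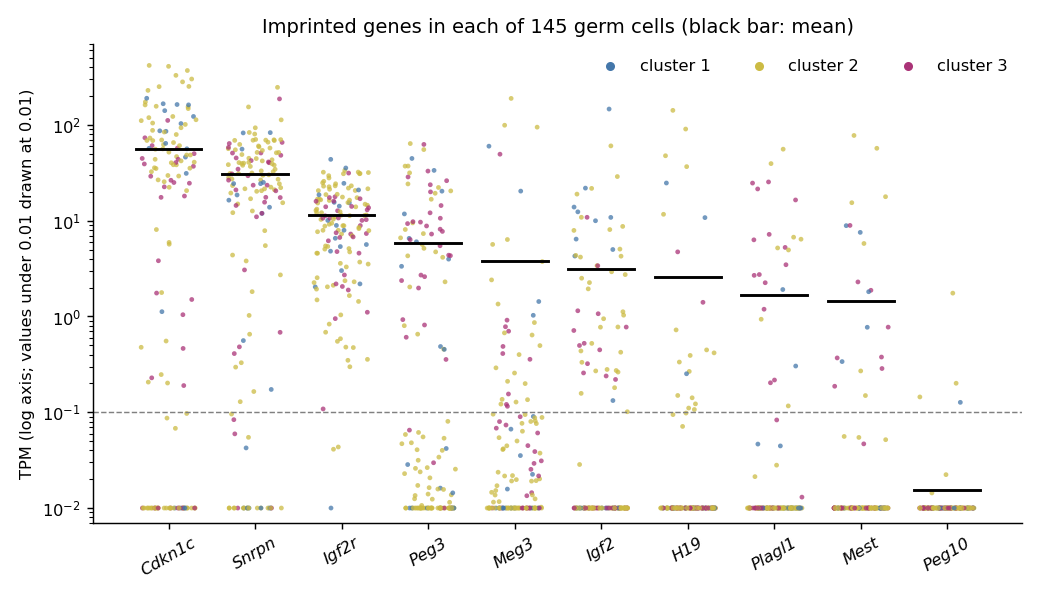
TPM of the 10 imprinted genes (log axis, values under 0.01 drawn at 0.01) in each germ cell, coloured by cluster, with the mean as a black bar and 0.1 TPM as a dashed line. Igf2r is at or above the line in all but 3 cells, whereas the means of H19, Meg3 and Mest lie above most of their cells, the highest of which reach 141.95, 189 and 77.6 TPM.

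The genes also differed in how evenly cells shared the RNA. The highest cell held 2.62% of the summed TPM of Igf2r, 5.10% of that of Cdkn1c, 5.50% of that of Snrpn and 7.54% of that of Peg3. The corresponding share was 37.96% for H19, 37.2% for Mest, 34.7% for Meg3, 31.9% for Igf2 and 23.1% for Plagl1. The top 5 cells held 91.4% of the summed H19 and 90.3% of the summed Meg3. A mean of H19, Meg3, Mest or Igf2 is thus set by few cells, which bears on every ratio given for them. Germ cells held a median of 4 of the 10 genes, with 1 to 8 in a cell. The median was 4 in clusters 1 and 2 and 5 in cluster 3.

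**Figure D2:**
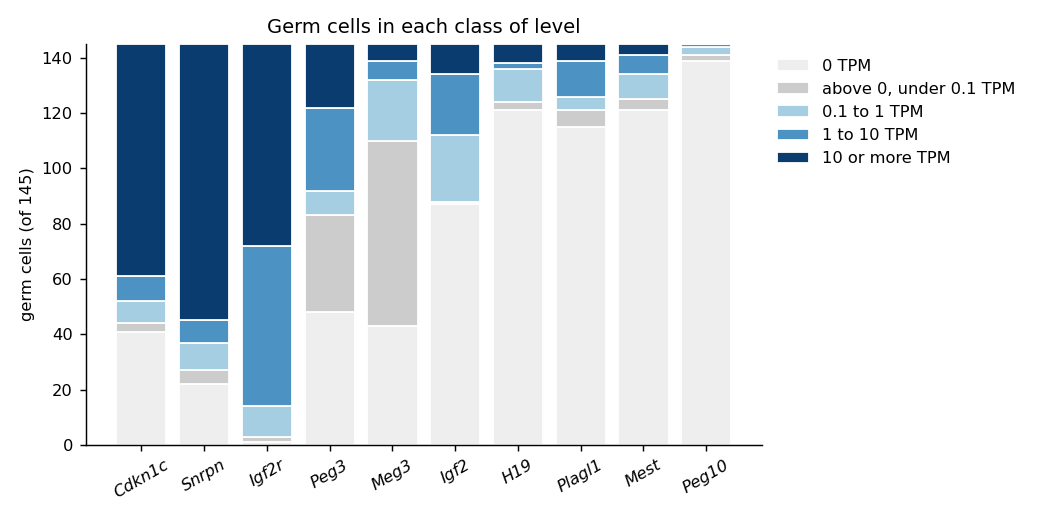
Number of germ cells in each class of TPM, stacked for each imprinted gene. Snrpn has 100 cells at 10 TPM or more and Peg10 is above 0 in 6, while 35 cells hold Peg3 and 67 hold Meg3 only as a trace above 0 but under 0.1 TPM.

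Igf2r, Igf2 and H19 belong to the growth factor branch of imprinting. Igf2r encodes a receptor that binds IGF2 and delivers it to lysosomes for breakdown. It lies on chr17:12682406-12769664 (GENCODE M21 on GRCm38, minus strand). Its level ran from 0 to 43.7 TPM with a median of 10.1 TPM, and 73 cells held 10 TPM or more. A median of 720 reads stood behind each cell in which it was found. The cluster means were 12.9, 11.9 and 9.62 TPM for clusters 1, 2 and 3, and the ranges overlapped, being 0 to 43.7, 0.0411 to 33.5 and 0.108 to 31.4 TPM. The log2 ratio was -0.11 for cluster 2 over 1 and -0.28 for cluster 3 over 2, where 0.58 (1.5-fold) was the size needed for a call. After division by spike-in TPM the value of cluster 3 over 2 was 0.50, in the opposite direction. Per spike-in the median of all genes was itself 0.37, so relative to it Igf2r stood at 0.13.

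Igf2, the fetal insulin-like growth factor (chr7:142650766-142666816, minus strand), was found in 57 cells, with a median of 0, a highest value of 147 TPM and 11 cells at 10 TPM or more. Cluster means were 12.2, 2.23 and 0.620 TPM. The share of cells with it was 52.6% in cluster 1 (exact interval 28.9% to 75.6%), 36.6% in cluster 2 (26.8% to 47.2%) and 39.4% in cluster 3 (22.9% to 57.9%). All 3 intervals overlap. At the stricter level of 1 TPM the shares were 47.4%, 21.5% and 12.1%. Cell 36 of cluster 1 held 147 TPM of Igf2 from 377 reads and had a pregranulosa sum of 64.2 TPM. Without it the mean of cluster 1 was 4.71 TPM, the log2 ratio of cluster 2 over 1 went from -2.03 to -0.82 and that of cluster 3 over 1 from -3.02 to -1.82, both still past 1.5-fold. With CPM of the estimated counts they were -1.15 and -1.75. Over the germ cells Igf2 had a Spearman's rho of 0.25 with the mesothelium sum and 0.23 with the sum of blood and endothelial genes, beside -0.14 with the order of cells. The part of the somatic RNA in this result was not tested.

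H19, a long noncoding RNA whose gene lies 72623 bases from Igf2 (chr7:142575529-142578143, minus strand), was found in 21 cells and was above 0 in 24. Its highest values were 141.95 TPM in cell S034, 90.6 in cell S072, 47.7 in cell S076, 36.7 in cell S048 and 24.7 in cell S126. Cells S076 and S126 were also those with the highest stroma and blood sums (842 and 324970 TPM). Cluster means were 1.88, 3.57 and 0.186 TPM, and in cluster 3 only 2 of 33 cells held it, neither at 10 TPM. The ratio of cluster 3 over 2 was -1.95 and stayed between -2.13 and -1.37 with any 1 cell left out, but it was -0.23, short of a call, as a difference of mean log2 values. For cluster 2 over 1 the ratio was 0.66, but it was -0.45 per spike-in, and it lost its call without cell S034 (0.09), S072 (0.33), S076 (0.50) or S048 (0.55), and that of cluster 3 over 1 (-1.28) lost it without cell S126 (-0.44). Without the highest cell of each of the 4 somatic marker lists (cells S076, S096, S126 and S129) they were 1.37 and -0.44. H19 and Igf2 were found together in 9 cells. Of cells with H19, 42.9% held Igf2, beside 38.7% of cells without H19. Ins2, the next gene at this locus, was at 0 in every germ cell, which allows a share of up to 2.07% (here and for other counts of 0 the limit is 3 cells out of those counted, not the exact interval). Airn, the antisense RNA that overlaps Igf2r, averaged 18.4 TPM and was found in 77.9% of cells. The strand setting of the counting is not stated, so reads of the overlapping stretch cannot be assigned with certainty to Igf2r or Airn.

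Cdkn1c encodes p57, an inhibitor of cyclin-dependent kinases that holds cells out of the division cycle (chr7:143458339-143461050, minus strand). It had the highest mean of the members and a wide spread, from 0 in 41 cells through a median of 29.3 TPM to 418 TPM in cell S072. Cluster means were 77.7, 64.4 and 22.1 TPM, with medians of 64.2, 32.5 and 17.5 TPM. The highest cell was at 190, 418 and 111.4 TPM, so the clusters overlapped, but no cluster 3 cell was above 111.4 TPM. The share of cells with the gene did not follow the mean, being 78.9%, 66.7% and 72.7% (exact intervals 54.4% to 93.9%, 56.1% to 76.1% and 54.5% to 86.7%). The log2 ratio was -1.50 for cluster 3 over 2 and -1.77 for cluster 3 over 1, and it stayed between -1.68 and -1.41 and between -1.95 and -1.65 with any 1 cell left out. Per spike-in the former was -0.50, short of 1.5-fold, and -0.87 once the all-gene median of that scaling was subtracted. For cluster 2 over 1 it was -0.27, but past 1.5-fold per spike-in (-0.73), with mean log2 values (-1.14) and with clusters from 2000 variable genes (-0.83). Over the germ cells Cdkn1c had a Spearman's rho of 0.23 with the sum of blood and endothelial genes, whose median was 59.2, 70.8 and 32.1 TPM in clusters 1, 2 and 3, and the part of that sum in the result was not tested. Of the neighbours under the same imprinting centre, Kcnq1ot1, a long antisense RNA, averaged 0.582 TPM and was found in all but 16 cells, and Phlda2, a placental growth restrainer, averaged 0.701 TPM and was found in 6.

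Snrpn encodes a small nuclear ribonucleoprotein that takes part in splicing and lies in the domain syntenic to the Prader-Willi region (chr7:59982495-60140219, minus strand). It was found in all but 27 cells, with a median of 23.5 TPM and a highest value of 247 TPM in cell S040, and 100 cells held 10 TPM or more. Cluster means were 18.8, 33.7 and 30.2 TPM and medians 11.9, 28.2 and 23.5 TPM. The share of cells with it was 63.2% in cluster 1 (38.4% to 83.7%), 82.8% in cluster 2 (73.6% to 89.8%) and 87.9% in cluster 3 (71.8% to 96.6%). Its log2 ratio was 0.81 for cluster 2 over 1, at least 0.71 with any 1 cell left out, but 0.57 with Ward clusters, just short of a call. For cluster 3 over 2 it was -0.16, short of a call, but past 1.5-fold in either direction under other settings. It was 0.82 per spike-in, -0.89 with clusters from 2000 variable genes and -0.75 in 3 equal bins. For cluster 3 over 1 the value was 0.66 and just past the limit. It was 0.51 with clusters made without Taf4b, 0.32 in 3 equal bins, 0.24 with 5 components, 0.18 with Ward clusters, -0.022 with clusters from 2000 variable genes and 0.57 with the left-out cell put back. Leaving out any of 9 cells ended the call, with 0.41 without cell S023 as the lowest value and 0.58 without each of cells S002, S016, S026, S059, S065, S098, S107 and S126. Snurf shares a transcript with Snrpn. Its listed mean of 18.7 TPM rests on 559 reads in all and on an effective length of 20.5 bases at the median, so its TPM is not comparable with the others. Ndn, also paternally expressed and a growth suppressor of neurons, averaged 8.71, 8.05 and 0.578 TPM in clusters 1, 2 and 3 (log2 ratio -2.52 for cluster 3 over 2). Magel2 was found in 6 cells. Ube3a, a ubiquitin ligase gene of the same domain, averaged 155 TPM and was found in all but 4 cells. Ndn was present in 55.9% of cells with Snrpn and in 48.1% of cells without it.

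Peg3 and Plagl1 encode zinc finger transcription factors that act on growth and cell survival. Both were higher in cluster 3 than in cluster 2, and both were found in a larger share of its cells. Peg3 (chr7:6703892-6730431, minus strand) was at 0 in 48 cells, at a trace under 0.1 TPM in 35, and above that in 62, up to 63.9 TPM in cell S119. In cluster 3, 28 of 33 cells held it (84.8%, exact interval 68.1% to 94.9%), against 24 of 93 in cluster 2 (25.8%, 17.3% to 35.9%) and 10 of 19 in cluster 1 (52.6%, 28.9% to 75.6%). After each cell was thinned to 1000000 reads the shares were 63.2% in cluster 1, 29.03% in cluster 2 and 87.9% in cluster 3. Medians were 0.453, 0.0137 and 6.34 TPM and means 6.91, 4.20 and 9.84 TPM for clusters 1, 2 and 3. The values of the clusters overlapped, since cluster 2 had cells at 63.9 and 55.3 TPM. The log2 ratio of cluster 3 over 2 was 1.06 (0.82 to 1.25 with any 1 cell left out) and 1.98 per spike-in. Between clusters 1 and 2 the value was -0.60 for 2 over 1, a call that ended without cell S059 (-0.16), S098 (-0.31), S070 (-0.46) or S126 (-0.55), and also with CPM of the estimated counts (-0.55), with Ward clusters (-0.56) and with the left-out cell put back (-0.54). That of cluster 3 over 1 was 0.46, short of a call, but it was called under 5 other settings (0.84 per spike-in, 0.88 with CPM of the estimated counts, 0.97 with mean log2 values, 0.66 with Ward clusters and 0.75 in cells with at least 100 TPM of Ddx4). It was also 0.90 without cell S059, 0.75 without cell S098 and 0.60 without cell S070.

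**Figure D3:**
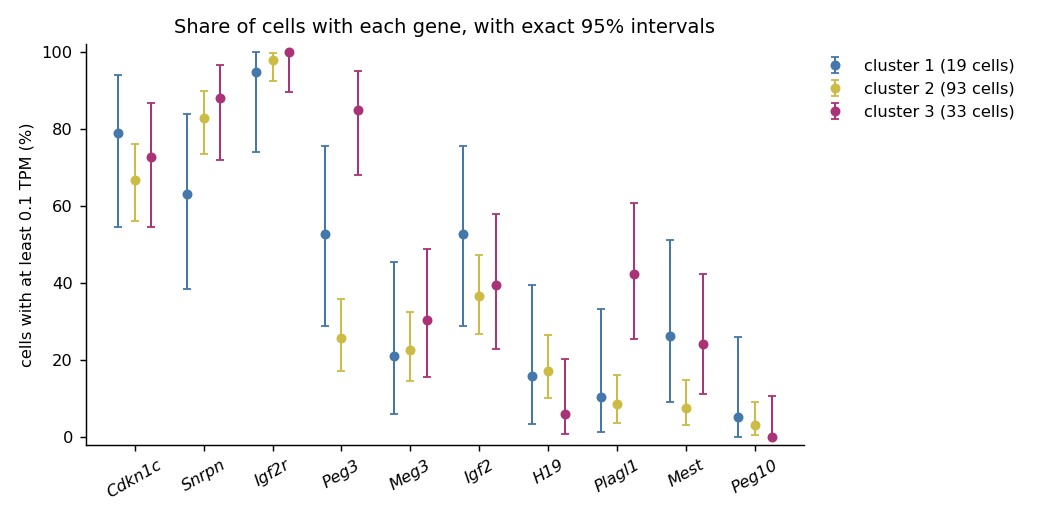
Share of cells with at least 0.1 TPM of each imprinted gene in clusters 1, 2 and 3, with exact 95% intervals that cover counting error only. Peg3 was found in 25.8% of cluster 2 cells and 84.8% of cluster 3 cells, and Plagl1 in 8.60% and 42.4%. How many of all genes differ as much in share was not counted.

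Plagl1 (chr10:13060504-13131694, plus strand) was scarcer, with 30 cells above 0 and a highest value of 55.8 TPM in cell S119, the same cell that held most Peg3. It was found in 2 of 19, 8 of 93 and 14 of 33 cells of clusters 1, 2 and 3, that is in 10.5% (1.30% to 33.1%), 8.60% (3.79% to 16.2%) and 42.4% (25.5% to 60.8%). After thinning the shares were 10.5%, 5.38% and 33.3%. Means were 0.121, 1.29 and 3.63 TPM. Without cell S119 the mean of cluster 2 was 0.694 TPM, and cell S050 held 82.9% of the summed TPM of cluster 1. The log2 ratio was 1.02 for cluster 3 over 2 (0.79 to 1.45 with any 1 cell left out) and 2.04 for cluster 3 over 1. For cluster 2 over 1 the value of 1.03 was 0.60 without cell S119 and, short of a call, 0.52 with CPM of the estimated counts, 0.14 with mean log2 values and 0.047 with clusters from 2000 variable genes, and it changed sign, to -0.91, where cells were cut into 3 equal bins of their order. The 16 cells with both genes were 66.7% of the Plagl1 cells and 25.8% of the Peg3 cells. Most of the shared cells were in cluster 3. There, 12 of the 14 cells with Plagl1 held Peg3, as did 16 of the 19 without Plagl1, and in cluster 2, 2 of 8 did, as did 22 of 85 without it. Cluster 3 also had the lowest spike-in TPM, and per spike-in Peg3 and Plagl1 were still 1.61 and 1.45 above the median of all genes. Usp29, which starts beside Peg3 on the opposite strand, averaged 4.38 TPM and was present in 79.03% of cells with Peg3 and in 53.01% of cells without. Zim1, a maternally expressed neighbour, averaged 0.507 TPM. Across the germ cells Peg3 had a Spearman's rho of 0.19 with the reads of a cell, -0.35 with its germ marker sum and -0.36 with its spike-in TPM, the last pair larger in size than its rho of 0.29 with the order of cells. Plagl1 had 0.17, -0.26 and -0.25. The part of these in the result was not tested.

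**Figure D4:**
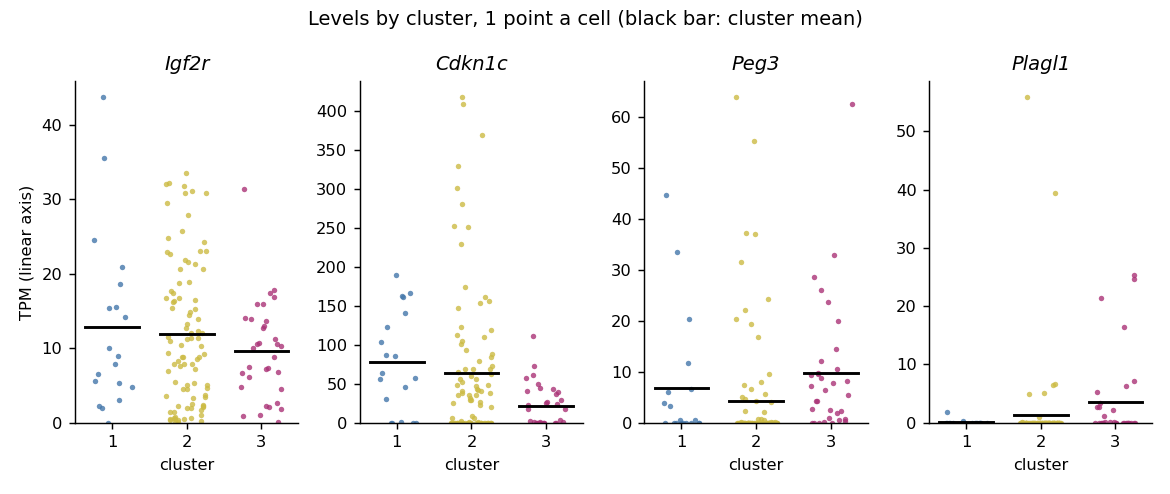
TPM (linear axis) of Igf2r, Cdkn1c, Peg3 and Plagl1 in each germ cell of clusters 1, 2 and 3, with cluster means as black bars. Cdkn1c means run 77.7, 64.4 and 22.1 TPM and Plagl1 means 0.121, 1.29 and 3.63 TPM, while the Igf2r means stay between 9.62 and 12.9 TPM.

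The same genes were read along an order of cells made from the 20 feature genes and cut into 5 bins of 29 cells. Peg3 was found in 37.9%, 31.03%, 13.8%, 44.8% and 86.2% of the cells from the first bin to the last, lowest in the middle and highest at the end. Plagl1 was found in 6.90% of cells in each of the first 3 bins, then in 17.2% and 44.8%. Mean Cdkn1c was 69.2, 92.9, 64.8, 31.3 and 24.6 TPM, with the higher values in the first 3 bins. Mean Snrpn was 22.1, 27.2, 37.2, 35.1 and 33.3 TPM. Spearman's rho with the order over the germ cells was 0.29 for Peg3, 0.29 for Plagl1 and -0.23 for Cdkn1c, and between -0.16 and 0.12 for the other 7 genes. An order from 2000 variable genes gave 0.28, 0.30 and -0.26. With TPM divided by spike-in TPM the values were 0.31, 0.30 and -0.12, and Snrpn went from 0.12 to 0.26. These are descriptions over cells of 1 sample.

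The other 3 genes were Meg3, Mest and Peg10. Meg3 is a noncoding RNA that starts the maternally expressed RNA cluster next to Dlk1 (chr12:109541001-109571726, plus strand). A trace of it, above 0 but under 0.1 TPM, was held by 67 cells, and 43 were at 0. Only 6 cells reached 10 TPM, among them cell S076 (189 TPM), cell S131 (99.3), cell S033 (94.8), cell S126 (59.99) and cell S078 (49.5). Cell S076 had the highest stroma sum of all cells (842 TPM) and cell S126 the highest blood sum, whereas cells S131 and S033 had stroma sums of 0.575 and 0.0636 TPM. Meg3 had a Spearman's rho of 0.30 with the pregranulosa sum, beside 0.077 with the order of cells. The part of the somatic RNA in its ratios was not tested. Cluster means were 4.37, 4.39 and 1.64 TPM, while the shares of cells with Meg3 were 21.1%, 22.6% and 30.3%. Cluster 3 over 2, at -1.03, was -0.36 without cell S076, -2.24 without cell S078 and -0.083 with mean log2 values. Cluster 3 over 1, at -1.02, was 0.21 without cell S126 and -2.23 without cell S078. Cluster 2 over 1, at 0.01, was -0.67 without cell S076 and 1.24 without cell S126, and -1.09 per spike-in and -0.94 with clusters from 2000 variable genes. Only cluster 3 over 2 kept its sign with any 1 cell left out. Dlk1, a growth regulator read from the other copy, averaged 29.6 TPM, was found in 88.3% of cells and had cluster means of 6.39, 39.2 and 16.2 TPM. It was found in 29 of the 35 cells with Meg3. Rian and Mirg, noncoding RNAs downstream of Meg3, averaged 11.6 and 2.51 TPM and were found in 77 and 25 cells. Only 16 of the 35 cells with Meg3 held Rian.

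Mest, which encodes a hydrolase-like protein of the mesoderm (chr6:30723547-30748465, plus strand), was found in 20 cells, at 77.6 TPM in cell S142 and 57.04 TPM in cell S058. The latter rests on 71 reads, while cell S117, at 15.4 TPM, had 277. Cluster means were 1.02, 1.87 and 0.459 TPM and shares 26.3%, 7.53% and 24.2%, so the mean and the share ran in opposite directions between clusters 2 and 3. Cluster 3 over 2 gave -0.98, and -0.49 without cell S142. It was 0.21 per spike-in and 0.014 as a difference of mean log2 values, so its direction depends on the scale. With CPM of the estimated counts it was -0.21, short of a call. Cluster 2 over 1, at 0.51, was -2.04 with clusters from 2000 variable genes, -1.35 in 3 equal bins, -0.25 per spike-in and -0.23 with CPM of the estimated counts, but 0.82 with a pseudocount of 0.1 TPM, 0.73 with Ward clusters, 0.70 with 5 components, 0.65 in cells with at least 100 TPM of Ddx4, 0.86 without cell S051 and 0.80 without cell S098, and that of cluster 3 over 1, -0.47, was -1.73 in 3 equal bins, -1.61 with clusters from 2000 variable genes, -1.0 with a pseudocount of 0.1 TPM and -0.76 without cell S138. Copg2, which overlaps the end of Mest on the opposite strand, averaged 28.6 TPM. Peg10, a gene from a retrotransposon needed for the placenta (chr6:4747306-4760517, plus strand), was the scarcest. It was found in 4 cells, 1 of them above 1 TPM (cell S074, 1.75 TPM from 80 reads), and in none of the 33 cells of cluster 3, which allows a share of up to 9.09%. Sgce, which starts beside Peg10 on the opposite strand, averaged 0.142 TPM and was found in 19 cells.

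Counted over the list, 9 of the 10 members passed the filter on low values and could be called. For cluster 2 over 1, 3 were higher (Plagl1, Snrpn and H19) and 2 lower (Igf2 and Peg3). Of all 22616 genes that passed, 23.7% were called higher and 17.6% lower in that comparison. For cluster 3 over 2, 2 were higher (Peg3 and Plagl1) and 5 lower (H19, Cdkn1c, Meg3, Igf2 and Mest), beside 15% and 24.5% of all genes. For cluster 3 over 1, 2 were higher (Plagl1 and Snrpn) and 4 lower (Igf2, Cdkn1c, H19 and Meg3), beside 25.1% and 27.7%. The median log2 ratio of the 9 members was 0.01, -0.98 and -0.47 in the 3 comparisons, and that of all genes 0.08, -0.12 and 0.00. The comparisons share clusters and are not independent. Of the 5 called lower in cluster 3 than in 2, Meg3 and Mest lost the call without 1 cell, while H19, Cdkn1c and Igf2 kept it with any 1 cell left out. With mean log2 values H19 (-0.23) and Igf2 (-0.29) lost it, and with clusters from 2000 variable genes Igf2 did (-0.43). Division by spike-in TPM changed this balance. For cluster 2 over 1 it left 2 members higher and 4 lower, with a median of -0.45, beside 20.5% and 23.1% of all genes. In the comparison of cluster 3 with 2 it left 3 members higher (Peg3, Plagl1 and Snrpn) and 1 lower (H19), with a median of 0.21, beside 39.5% and 9.88% of all genes, and it brought Igf2 (-0.49), Cdkn1c (-0.50) and Meg3 (-0.38) under 1.5-fold. By expressed copy in somatic tissue, 3 of the 4 maternally expressed members were lower in cluster 3 than in cluster 2 by TPM and none higher (1 lower per spike-in), and of the 6 paternally expressed members, of which Peg10 could not be called, 2 were higher and 2 lower (3 higher and none lower per spike-in).

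**Figure D5:**
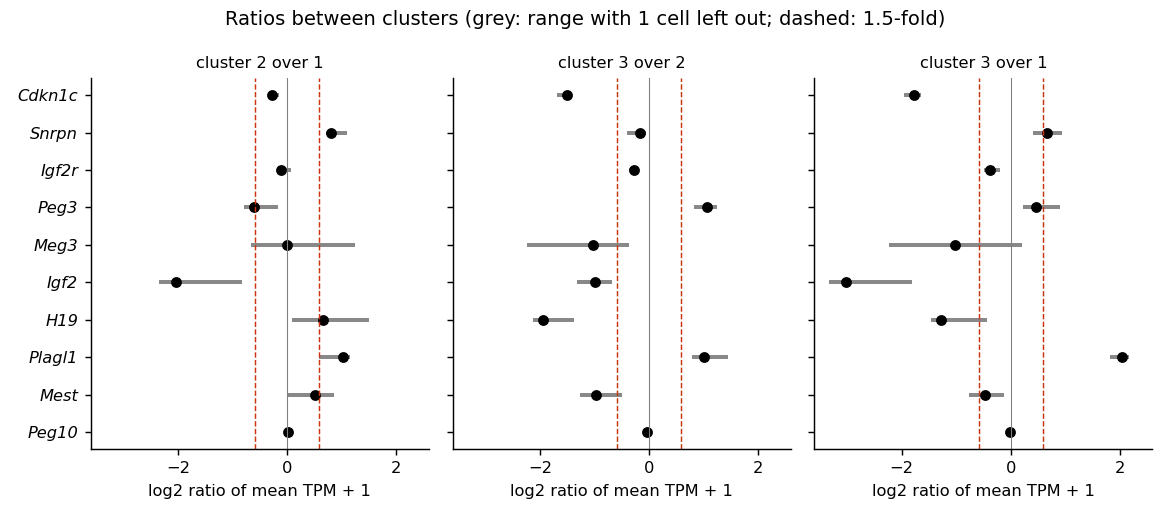
Log2 ratio of mean TPM + 1 for each imprinted gene in the 3 comparisons of clusters (black points), with the range over leaving out 1 cell (grey) and 1.5-fold (dashed). Cdkn1c, Peg3 and Plagl1 stay on one side of the dashed lines for cluster 3 over 2, whereas the range of Meg3 runs from -2.24 to -0.36.

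The transcripts behind these levels were read from the ratio of reads to TPM, which gives the effective length behind the TPM of a cell. It mostly lies under the length of the longest transcript, but Peg3 reached 8789 bases against 8694 and Plagl1 5288 against 5260. For cells with at least 20 reads of a gene, Igf2r had a median of 8671 bases, and all but 2 of the 140 cells were within 10% of its longest transcript of 8887 bases. Peg3 had a median of 8524 bases and 38 of 60 cells within 10% of its longest transcript of 8694 bases. But 10 cells were under 50% of it, among them S119, its highest cell by TPM, at 3606 bases. Snrpn was at 1769 bases (1698 to 1947), beside transcripts of 1932 and 2076 bases. Cdkn1c was at 844 bases in the median, and 61 of 92 cells were under 50% of the longest model of 1901 bases. Plagl1 was spread from 204 to 5288 bases over 15 cells, and Meg3 from 197 to 14515 bases over 11 cells. Igf2 ran from 213 to 4343 bases over 23 cells, 18 of them under 50% of its longest transcript, and H19 was under that mark in 6 of 8 cells. Mest was under it in 2 of 10 cells, with a lowest length of 400 bases against a median of 2172. These were its highest cells by TPM, S142 and S058. A short model raises the TPM per read. The TPM of Cdkn1c, Plagl1, Meg3, Igf2, H19 and Mest, and of Peg3 in part of its cells, thus depend on which transcript the reads were assigned to more than those of Igf2r and Snrpn do. The same holds for the neighbours Dlk1 and Rian, whose implied length was under 50% of the longest transcript in every cell with 20 reads (medians of 734 and 198 bases), and for Airn in 42 of 80 cells. The highest Plagl1 value, 55.8 TPM in cell S119, rests on 85 reads, whereas cell S116 had 39.5 TPM from 418.

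The 45 pairs of members had Spearman's rho between -0.16 and 0.26 over the germ cells, with a median of 0.03. The highest was that of Peg3 and Plagl1. Among 10004 genes found in at least 50% of cells, those whose pattern was most like a member were Gtf2i (0.37), Tmem82 (0.36) and Slc23a2 (0.36) for Igf2r, Reep5 (0.55), Surf4 (0.54) and Oaz1 (0.54) for Snrpn, and Gnas (0.43), Id4 (0.40) and Lrwd1 (0.38) for Cdkn1c. These values are Spearman's rho over germ cells that share library chemistry and differ in depth. Gnas is itself imprinted.

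Of 67 other imprinted genes listed, 66 were among the symbols, 45 averaged at least 1 TPM and 28 were found in at least 50% of cells. The highest were Commd1 (596 TPM), Ube3a (155), Gnas (98.5), Nap1l4 (98.2) and Mcts2 (74.1). Of the 51 that passed the filter, 16 were higher and 10 lower in cluster 2 than in cluster 1, beside 23.7% and 17.6% of all genes. In cluster 3, 4 were higher and 20 lower than in cluster 2, beside 15% and 24.5%. Their median log2 ratio was 0.26 and -0.42 in these comparisons, and 0.0028 and 0.14 per spike-in, where 16 were higher and 12 lower in cluster 3 than in cluster 2, beside 39.5% and 9.88% of all genes. The 4 higher in cluster 3 were Pon3 (2.92), Herc3 (1.59), Ampd3 (1.03) and Impact (0.65). Nap1l5 (1.87) and Phlda2 (1.56) had ratios past 1.5-fold but were found in too few cells to pass the filter. Dppa3, which shields maternal DNA from demethylation in the egg and zygote, led the 16 genes that set or protect imprints, with means of 2.27, 534 and 1711 TPM in clusters 1, 2 and 3. Zfp57 averaged 9.47, 124.2 and 314 TPM and Dnmt3b, a de novo DNA methyltransferase, 1.44, 16.7 and 29.02 TPM. Dnmt3a, another of these enzymes, averaged 29.1, 33.3 and 13.3 TPM. Among those whose mean TPM fell from cluster to cluster were Hells (338, 158 and 72.3 TPM), Ctcfl (14.9, 5.36 and 0.942 TPM) and Zfp445 (54.1, 22.2 and 16.6 TPM). For cluster 3 over 2 the log2 ratio of Zfp445 was -0.40, short of a call. Per spike-in Hells (-0.36), Zfp445 (-0.14) and Dnmt3a (-0.23) were short of a call in that comparison, while Ctcfl was at -1.41. Dnmt3l, the cofactor needed to set maternal imprints, was at 0 in every germ cell, which allows a share of cells of up to 2.07%. Of the 15 genes of this list that passed the filter, 5 were higher and 4 lower in cluster 2 than in cluster 1, beside 23.7% and 17.6% of all genes. For cluster 3 over 1, 6 were higher and 6 lower, beside 25.1% and 27.7%. For cluster 3 over 2, 4 were higher and 3 lower, beside the same 15% and 24.5%, with a median log2 ratio of -0.06. Per spike-in 10 were higher and 1 lower, beside 39.5% and 9.88%, with a median of 0.75.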

How the data were processed

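Single germ cells of newborn mouse ovaries were sequenced by Smart-seq2. The authors quantified the reads with Salmon (sequence bias correction) against mm10 with spike-in sequences, and deposited TPM per gene symbol and estimated counts of reads, which need not be whole and were not normalized. The annotation release and strand setting are not given in the sources used here. Counts were rounded only for thinning.

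Cells were clustered with Seurat 5.3.0 under R 4.3.3, on TPM of 20 feature genes (10 components, 20 neighbours). Of these, 19 are the study's clustering genes and Taf4b was added here. A resolution of 0.2 was used, the smallest tried that split the cells 3 ways. In Python 3.11.15 (pandas 2.3.3, NumPy 2.4.6, SciPy 1.17.1, matplotlib 3.10.9), log2 ratios of mean TPM were computed with a pseudocount of 1 TPM, which understates changes of low genes, and called at 1.5-fold. All genes with at least 0.1 TPM in at least 10 cells were treated alike. A gene was found in a cell at 0.1 TPM. Intervals are exact (Clopper-Pearson, 95%). Implied lengths used the listed effective length of 1854 genes with 1 transcript, of which 99.1% of values were within 1% of the cell's factor. Coordinates are from GENCODE M21 (GRCm38). No 2 cells had identical values. The calculations were tested on simulated cells whose spread was smaller, relative to the mean, than that of H19, Meg3 or Mest. That test does not cover ratios of such genes.

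The members, the named genes (all 10 members, their partners at each locus, the 3 genes most alike in pattern, and up to 5 listed genes by mean TPM) and the lists were chosen with earlier results of these data known. Genes named outside that rule are feature and marker genes, Ins2, and those that moved between clusters among the other imprinted and imprint-setting genes, which were chosen after their values were seen. Alternatives were spike-in scaling, CPM of the estimated counts, mean log2 values, a pseudocount of 0.1 TPM, Ward clusters, clusters from 2000 variable genes, from 5 components or without Taf4b (added after seeing the data), 3 equal bins, the left-out cell put back, cells with at least 100 TPM of Ddx4, other detection rules, no filter, and each cell left out.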

Additional observations from a re-analysis of the deposited data

How the results depend on the processing

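No paired analysis was possible because all cells form 1 group and no test was made. The number of members past 1.5-fold for cluster 2 over 1 was 3 in place of 5 with CPM of the estimated counts. For cluster 3 over 2 it was 4 per spike-in and 3 with mean log2 values, in place of 7. For cluster 3 over 1 it was 3, in place of 6, without 4 cells, the highest of each somatic marker list (cells S076, S096, S126 and S129). That setting was chosen after seeing the data, and cells with large blood sums, such as S088 (48602 TPM), stayed in. The count was also 3 as the lowest value with 1 cell left out. The number of members in at least 50% of cells was 5 in place of 3 when 1 estimated read was enough, and the share of cluster 2 cells with Peg3 was then 55.9%. The other settings for these counts, and for the shares of Peg3 and Plagl1 in clusters 2 and 3, stayed within 1.5 times or within the exact interval, but the balance within a count could turn. The clusters from 2000 variable genes differed much from the main ones, since they needed a resolution of 0.45 in place of 0.2, put 63 cells into cluster 1 in place of 20 (cell S029 included) and placed 91 of the 146 cells as the main clusters did. With them, 1 member was higher and 5 were lower for cluster 2 over 1 (in place of 3 and 2) and for cluster 3 over 1 (in place of 2 and 4). With mean log2 values these were 1 and 3 for cluster 2 over 1 and 3 and 2 for cluster 3 over 1, and in 3 equal bins 3 and 4 for cluster 2 over 1.

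Called ratios changed sign as follows. H19 for cluster 2 over 1 was -0.45 per spike-in and -0.10 with mean log2 values. Plagl1 for cluster 2 over 1 was -0.91 in 3 equal bins. Mest for cluster 3 over 2 was 0.21 per spike-in, 0.014 with mean log2 values and 0.43 with clusters from 2000 variable genes. Meg3 for cluster 3 over 1 was 0.21 without the 4 cells, which equals the value without cell S126, and -2.23 to 0.21 with 1 cell left out. Snrpn for cluster 3 over 1 was -0.022 with clusters from 2000 variable genes. Calls lost without a change of sign included those of H19 (-0.23) and Igf2 (-0.29) for cluster 3 over 2 with mean log2 values, of Plagl1 for cluster 2 over 1 with mean log2 values (0.14), and of Snrpn for cluster 3 over 1 with Ward clusters (0.18) and with clusters made without Taf4b (0.51), a setting chosen after seeing the data. No called ratio of Peg3, Igf2 or Cdkn1c changed sign under the settings run. The cause was not tested. Of all genes, 39.5% were higher and 9.88% lower in cluster 3 than in cluster 2 per spike-in, and 17.4% and 9.24% with mean log2 values. For cluster 2 over 1 the latter gave 10.7% and 17.4%. Without the filter, 13.4% of 52605 symbols were higher and 10.6% lower for cluster 2 over 1, 8.69% and 13.5% for cluster 3 over 2, and 13.6% and 15.3% for cluster 3 over 1. With 1 sample and no animal labels, the spread between animals cannot be given, and shares near 0 in cluster 1 are limited by its 19 cells.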
